A study of Homo sapiens with 6 samples.

Results

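Ribosome biogenesis factors are the nucleolar proteins that transcribe, modify, fold and cleave ribosomal RNA and load ribosomal proteins onto it. A list of 38 such genes was taken by symbol from a count table of 63643 rows, and all 38 had a row. The cells were HEK293T, a laboratory line derived from human embryonic kidney, and carried a deletion of GLO1 in both groups. GLO1 encodes glyoxalase 1, the enzyme that begins detoxification of methylglyoxal (MGO), a reactive by-product of glycolysis. The MGO group (3 libraries) received 60 µM MGO for 4 h, and the Control group (3 libraries) was untreated. Dose and time are as the labels give them; the MGO columns of the table carry a name with another code, whose meaning is not stated. The series asked whether MGO brings on the transcriptional programme of the integrated stress response. Whether the deleted line is 1 clone, and whether replicates came from separate cultures, is not stated in the labels, so the p-values rest on a spread between libraries that may be only technical.

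Ribosomes are built from a long precursor RNA made by RNA polymerase I in the nucleolus. Small nucleolar ribonucleoproteins (snoRNPs) guide its chemical modification, with box C/D particles placing 2'-O-methyl groups and box H/ACA particles converting uridine to pseudouridine. The small subunit processome then folds and cuts the part that becomes the 40S subunit, and another set of factors matures the 60S subunit. Many of these genes are known targets of the transcription factor MYC, which binds the E-box CACGTG with its partner MAX.

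Total counts per library lay between 117427883 and 157639431. GLO1 had 11704, 11481 and 11154 counts in MGO and 5357, 6860 and 6590 in Control libraries. Since both groups carry the deletion and its extent is not in the labels, GLO1 gives no check of either. All 8 markers fixed for HEK293T-like cells reached 1 CPM (counts scaled to a common library size by TMM) in at least 1 group, with summed levels of 2022 to 2277 CPM in MGO and 899 to 954 CPM in Control. The 5 blood cell markers, of which HBB was at 0, summed to at most 0.682 CPM in any library. Of 5 fibroblast markers, summing to 5.21 to 5.78 CPM in MGO and 14.2 to 15.4 CPM in Control, 2 reached 1 CPM. The 3 hepatocyte markers summed to 0.239 to 5.69 CPM in MGO and 0.132 to 0.148 CPM in Control. Mitochondrially encoded genes took 12.6 to 14.7% of counts in MGO and 5.32 to 5.55% in Control libraries. The part of the markers and of mitochondrial RNA in the results was not tested. In bulk RNA, a change in the number of cells of a state and a change in RNA per cell cannot be told apart.

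Of the 38 factors, 36 passed the filter on low counts. FBL, the methyltransferase of box C/D snoRNPs, had 1, 2 and 0 counts in MGO and 1, 2 and 1 in Control libraries. NOP10, the smallest protein of box H/ACA snoRNPs, had 0, 0 and 1 counts in MGO and 0 in every Control library. Both encode core parts of particles that dividing cells need, so these near-zero counts are not read as absent expression. NOP2 and PPAN were tested at low levels. In GENCODE release 29, 70.9% of the exonic bases of NOP2 and 83.2% of those of PPAN also belong to another gene on the same strand, and their values are uncertain for that reason. Smaller same-strand overlaps included 11.4% for RRS1 and 9.36% for WDR74. Overlaps with a gene on the other strand included 23.9% for HEATR1 and 17.6% for EBNA1BP2.

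At the promoters, an E-box was frequent among the factors. RefSeq promoter windows of GRCh38.p14, running from 250 bases before to 50 bases after a start site, matched 33 of the 38 genes. The others are NOLC1, RRS1, NOP58, RRP12 and BOP1. CACGTG, which reads the same on both strands, was in the window of 15 of these 33 genes (45.5%), against 11.7% of 13448 tested genes with a window and 7.26% of all 35116 windows. In 11 of the 33 (33.3%) the motif lay wholly within the first 50 transcribed bases, against 1.37% of the tested genes. Those 11 were BYSL, EBNA1BP2, FBL, GAR1, GNL3, MYBBP1A, NOP14, NOP2, PES1, UTP18 and WDR43. In BYSL it began at base 29 after the start, in PES1 at base 14 and in GNL3 at base 7.

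The 4 stretches printed here lie before the start site and show the motif, in capitals, in genes with different responses. UTP4, UTP18 and EBNA1BP2 were raised after MGO, and UTP20 was the member with the largest fall. They were read 5′ to 3′ on the strand of the gene.
UTP4: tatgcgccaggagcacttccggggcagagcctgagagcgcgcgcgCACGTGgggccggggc
UTP18: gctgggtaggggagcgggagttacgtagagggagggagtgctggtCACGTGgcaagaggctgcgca
UTP20: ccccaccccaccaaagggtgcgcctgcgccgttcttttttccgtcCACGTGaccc
EBNA1BP2: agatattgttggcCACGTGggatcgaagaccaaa
These are chr16:69132588-69132648 (plus strand), chr17:51260412-51260477 (plus), chr12:101280050-101280104 (plus) and chr1:43172787-43172820 (minus). The motif was found in 10 of the 21 raised genes with a window and in 3 of the 8 lowered ones. An ETS core (CCGGAAG, either strand) was in the windows of 13 of 33 factors (39.4%, against 19.0% of tested genes). An NRF1 core (GCATGCGC, either strand) was in those of 3 (9.09%, against 5.61%). These are matches of letters, which do not show binding.

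After MGO, 25 of the 36 tested factors rose and 8 fell, while WDR3, WDR75 and RRP12 were not called (edgeR quasi-likelihood test, Benjamini-Hochberg adjusted p under 0.05 over all genes). The rises made up 69.4% of the tested factors, where 38.8% of all 23109 genes tested rose. Falls made up 22.2%, where 40.5% of all genes fell. The median log2 fold change of the factors was 0.86, and that of all genes was −0.02. Changes of 1 or more on the log2 scale were called upward in 16 factors (20.9% of all genes) and downward in 2 (25.8% of all genes). The 3 MGO values lay above the 3 Control values for 25 factors and below them for 9, against 39.7% and 41.8% of all genes. Scaled by library size alone, 20 factors rose and 12 fell, so rises were 62.5% of the calls in place of 75.8%. That scaling moved the median of all genes to −0.55. The factors lay above the median of all genes by 0.88 under both scalings. A change of scaling shifts all genes by nearly the same amount, so this difference could hardly move and is no check. Shares of all genes that rose or fell under library size alone are not given here.

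**Figure D1:**
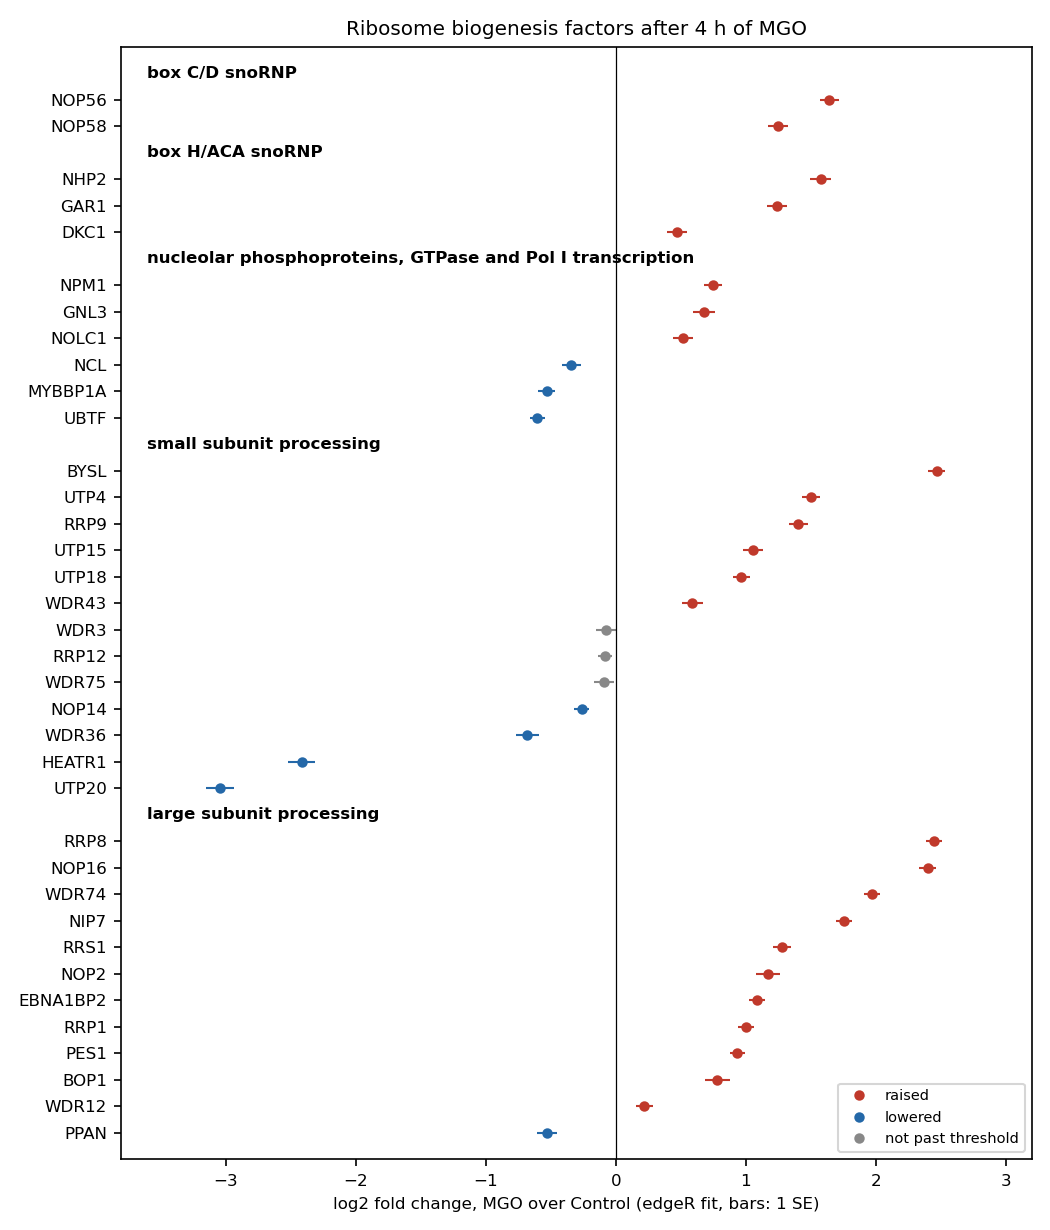
Log2 fold change of MGO over Control (x axis, edgeR, bars of 1 SE) for each of the 36 tested factors, grouped by role, with raised genes in red, lowered in blue and those not past the threshold in grey. Large subunit factors lie to the right except PPAN, and small subunit factors run from −3.04 for UTP20 to 2.47 for BYSL.

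All 5 tested snoRNP proteins rose, where 38.8% of all genes tested rose. NOP56 (chromosome 20, 2652145 to 2658393), a scaffold of the box C/D particle, stood at 1154, 1059 and 1071 CPM in MGO and 383, 330.4 and 340.3 CPM in Control libraries. Every MGO value was above every Control value, with a log2 fold change of 1.64 (SE 0.07, adjusted p = 8.13e-10). Its partner NOP58 (chromosome 2, 202265716 to 202303666) had 303, 262 and 247 CPM in MGO and 118, 111 and 114 CPM in Control, a rise of 1.247 (SE 0.08). The groups did not overlap for either gene. The level per kilobase of transcript was 456 CPM for NOP56 and 132 CPM for NOP58 in MGO.

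In the box H/ACA particle, NHP2, an RNA-binding subunit, had the largest rise. It stood at 207, 251 and 222 CPM in MGO and 80.1, 73.1 and 75.3 CPM in Control (log2 fold change 1.57, SE 0.08, adjusted p = 1.87e-09). GAR1, which helps substrate turnover, had 71.3, 70.5 and 62.2 CPM in MGO and 30.98, 27.4 and 28.2 CPM in Control (1.24, SE 0.08). DKC1, the pseudouridine synthase dyskerin, had 270.1, 228 and 229 CPM in MGO and 178, 170.2 and 177 CPM in Control. Its rise of 0.47 (SE 0.07, adjusted p = 8.5e-05) was smaller, and it turned to −0.054 (adjusted p = 0.568) under library size alone. The proteins occur together in the particle, and the count of NHP2 per count of DKC1 shifted within libraries, a measure that needs no scaling. This ratio was 0.767, 1.10 and 0.969 in MGO and 0.451, 0.429 and 0.426 in Control libraries. It is not corrected for transcript length, 732 nt for NHP2 and 2828 nt for DKC1. Among coding genes of like length with a mean of at least 1 CPM, NHP2 was 0.34 above the median and DKC1 0.53 above. That reverses their order, whereas among all tested genes of like length NHP2 stayed further above the median than DKC1. The part of length in this shift was not tested. The exonic bases of NHP2 overlap those of a gene on the other strand by 43.8% in GENCODE release 29, and whether the counting used strand is not known.

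The abundant nucleolar proteins and factors tied to RNA polymerase I divided evenly, with 3 raised and 3 lowered, where 38.8% of all genes rose and 40.5% fell. NPM1 (chromosome 5, 171387116 to 171411137), a histone and ribosome chaperone that forms the outer nucleolus, had 1646, 1592 and 1464 CPM in MGO and 987, 894 and 919 CPM in Control, a rise of 0.75 (SE 0.07, adjusted p = 6.25e-07). NCL (chromosome 2, 231453531 to 231483641), or nucleolin, which binds the precursor RNA, went the other way, with 956, 854 and 816 CPM in MGO and 1141, 1081 and 1103 CPM in Control. Neither pair of groups overlapped. The log2 fold change of NCL was −0.34 (SE 0.07, adjusted p = 0.000786). It became −0.17 (adjusted p = 0.0515) under upper quartile scaling and turned to 0.37 after a fitted dependence on transcript length was taken out of every library, termed removal of the length trend. Within libraries, NPM1 counts per NCL count were 1.72, 1.86 and 1.79 in MGO and 0.865, 0.827 and 0.833 in Control. The balance of these transcripts thus changed whatever the scaling. This ratio is not corrected for transcript length, 1468 nt for NPM1 and 4034 nt for NCL. Against the median of all tested genes in its decile of length, NPM1 was 0.18 higher and NCL 0.41 higher. NPM1 has 49 rows named as its pseudogenes, with 1.26% of its own count in all. NCL has 2 such rows with 0.0404%.

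UBTF (chromosome 17, 44205033 to 44221626), the architectural factor that keeps ribosomal DNA open for RNA polymerase I, had 100.4, 94.9 and 95.1 CPM in MGO and 148, 146 and 148 CPM in Control. The groups were well apart, with a fall of 0.60 on the log2 scale (SE 0.06, adjusted p = 8.72e-07). MYBBP1A, a nucleolar protein that restrains polymerase I transcription and acts in processing, had 121, 134 and 137 CPM in MGO and 185, 194 and 189 CPM in Control. It fell by 0.53 (SE 0.07), and this turned to 0.31 with the length trend removed. GNL3 (nucleostemin, a nucleolar GTPase) had 203, 166 and 166 CPM in MGO and 117.1, 108 and 109 CPM in Control, a rise of 0.68 (SE 0.08). NOLC1, a chaperone of snoRNPs, had 489, 416 and 408 CPM in MGO and 298, 306 and 314 CPM in Control. Its rise of 0.52 (SE 0.08) became −0.0067 (adjusted p = 0.945) under library size alone, where GNL3 also lost its call (0.16, adjusted p = 0.154).

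The small subunit factors had the widest spread: 6 of 13 rose (46.2%), 4 fell (30.8%) and 3 were not called, with a median log2 fold change of −0.08. Over all genes 38.8% rose and 40.5% fell. BYSL (chromosome 6, 41921188 to 41933046), or bystin, which acts in late maturation of the 40S precursor, had the largest rise of all 36 factors. It stood at 245, 271 and 257 CPM in MGO and 47.3, 45.4 and 47.3 CPM in Control, 5.53-fold higher (log2 fold change 2.47, SE 0.07, adjusted p = 2.91e-11). UTP20 (chromosome 12, 101280109 to 101386616), a giant helical-repeat scaffold of the processome, had the largest fall. Its values were 14.4, 10.8 and 12.4 CPM in MGO and 92.3, 108 and 109.9 CPM in Control, 8.23-fold lower (log2 fold change −3.04, SE 0.11, adjusted p = 1.49e-10). The lowest Control value of UTP20 was several times its highest MGO value. HEATR1 (chromosome 1, 236549005 to 236604504), also a helical-repeat scaffold, had 37.6, 29.1 and 30.9 CPM in MGO and 153, 185 and 182 CPM in Control (log2 fold change −2.42, SE 0.10, adjusted p = 5.97e-10).

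HEATR1 is a subunit of UtpA, the subcomplex that first binds the precursor RNA and links it to polymerase I transcription. Of the 5 UtpA genes in the list, 3 rose, 1 fell and 1 was not called. UTP4 (chromosome 16, 69131291 to 69231130), a WD-repeat subunit, had 69.1, 65.1 and 59.8 CPM in MGO and 23.0, 22.6 and 23.0 CPM in Control, a rise of 1.499 (SE 0.07, adjusted p = 9.28e-10). UTP15 rose by 1.06 (SE 0.08) and WDR43 by 0.59 (SE 0.08), the latter lost under library size alone (0.06, adjusted p = 0.532). WDR75 stood at 77.7, 66.0 and 63.1 CPM in MGO and 73.8, 73.1 and 73.6 CPM in Control, and the groups overlapped. UTP4 counts per HEATR1 count were 1.84, 2.23 and 1.94 in MGO and 0.150, 0.122 and 0.126 in Control libraries. Transcripts of partners in 1 subcomplex thus moved apart. This ratio is not corrected for transcript length, 2322 nt for UTP4 and 6538 nt for HEATR1. From the median of all tested genes in its decile of length, UTP4 differed by 1.32 and HEATR1 by −0.95.

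In UtpB, the next subcomplex to join, the values of its 3 listed genes ranged from 0.96 for UTP18, which rose (SE 0.07), to −0.68 for WDR36, which fell (SE 0.09). WDR36 had 57.8, 47.0 and 46.9 CPM in MGO and 74.7, 85.1 and 83.3 CPM in Control, and its direction turned to 0.61 with the length trend removed. WDR3 had 104, 88.9 and 84.4 CPM in MGO and 94.8, 97.3 and 99.8 CPM in Control, with overlapping groups. Without MGO replicate 1, which was the highest MGO library for both genes, WDR3 (−0.16, adjusted p = 0.00617) and WDR75 (−0.18, adjusted p = 0.00249) passed the threshold as lowered. Elsewhere in the processome, RRP9, a protein of the U3 snoRNP, had 62.0, 70.9 and 72.6 CPM in MGO and 26.7, 25.7 and 25.2 CPM in Control, a rise of 1.40 (SE 0.07). NOP14, which helps assemble the processome, fell by 0.26 (SE 0.06). That call was lost with upper quartile scaling (adjusted p = 0.175) and after removal of the length trend (adjusted p = 0.4). RRP12, an export factor with helical repeats, had values of 74.5 to 76.5 CPM in MGO and 79.5 to 80.6 CPM in Control. Its groups did not overlap although its change of −0.08 (adjusted p = 0.194) did not pass the threshold.

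**Figure D2:**
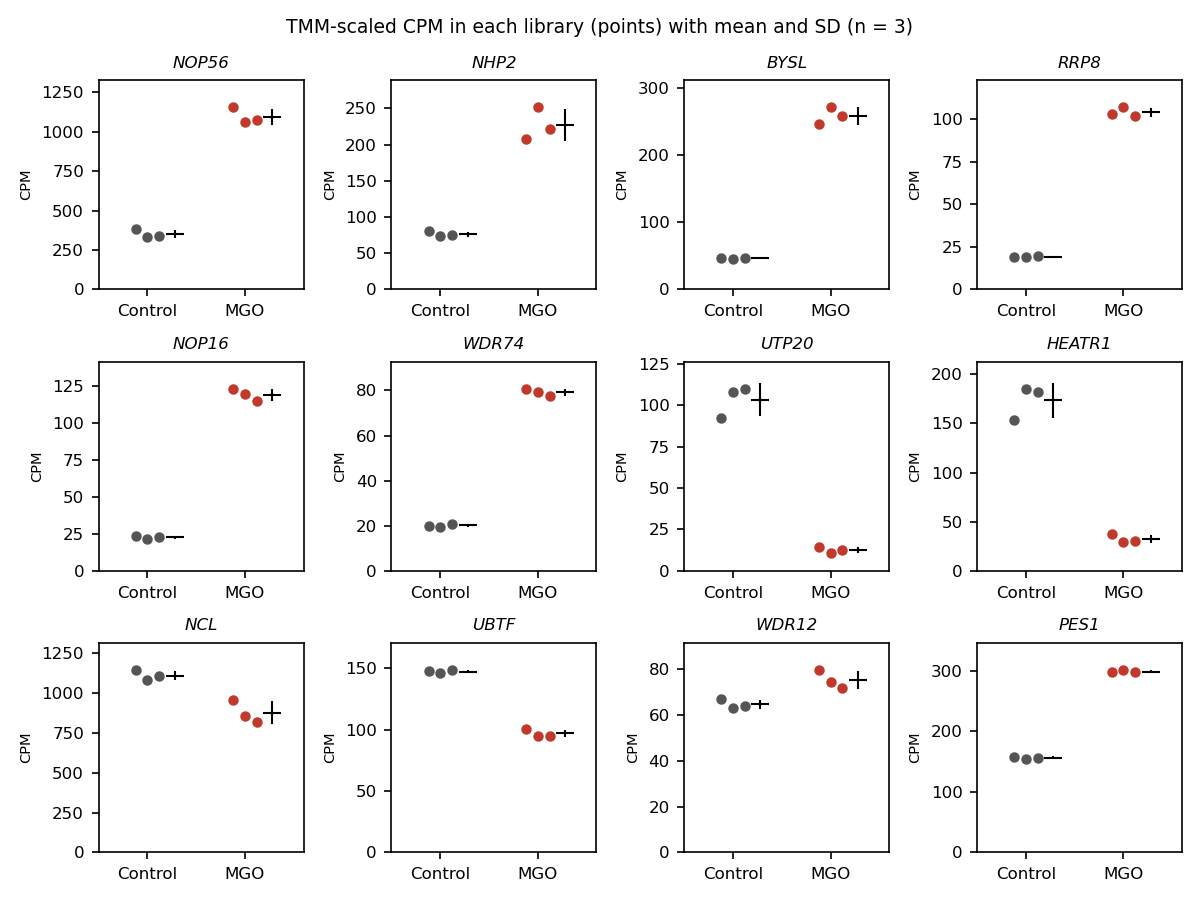
TMM-scaled CPM (y axis, from 0) of 12 factors in each Control library (grey points) and MGO library (red points), with mean and SD (n = 3) as black bars beside them. In every panel the groups are apart, from a small gap for WDR12 to BYSL at 258 against 46.6 CPM and UTP20 at 12.6 against 103 CPM.

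The large subunit factors were raised more evenly: 11 of 12 rose (91.7%), 1 fell (8.33%), and the median log2 fold change was 1.13. Over all genes 38.8% rose and 40.5% fell. Their median transcript length was 2091 nt, against 3533 nt for the small subunit factors and 3403 nt for the nucleolar group. The part of length in this contrast was not tested. RRP8 (chromosome 11, 6595075 to 6603620), the methyltransferase that places a base methylation on 28S ribosomal RNA, had 103, 107 and 102 CPM in MGO and 19.1, 18.8 and 19.4 CPM in Control (log2 fold change 2.45, SE 0.06, adjusted p = 2.17e-11). NOP16 (chromosome 5, 176383938 to 176388975), a nucleolar assembly factor, had 123, 119 and 115 CPM in MGO and 23.6, 21.5 and 22.7 CPM in Control (2.40, SE 0.07). WDR74 (chromosome 11, 62832342 to 62841809), which works with an AAA ATPase on early 60S precursors, had 80.7, 79.3 and 77.6 CPM in MGO and 20.04, 19.7 and 21.0 CPM in Control (1.97, SE 0.06). In each of these genes the spread within a group was small beside the gap. NIP7, a 60S assembly factor, rose by 1.75 (SE 0.06), RRS1, which helps place the 5S particle, by 1.28 (SE 0.07), and EBNA1BP2, a partner of early 60S assembly, by 1.09 (SE 0.06). RRP1 rose from 101.6 to 204 CPM and the cytosine methyltransferase gene NOP2 by 1.17 on the log2 scale (SE 0.09). PPAN, the Peter Pan homologue, was the exception, with 9.96, 9.11 and 8.63 CPM in MGO and 13.8, 12.7 and 13.6 CPM in Control (log2 fold change −0.53, SE 0.08, adjusted p = 4.64e-05). The row of its readthrough gene PPAN-P2RY11 held 7 counts over all libraries.

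PES1, BOP1 and WDR12 form the PeBoW complex, which is needed to remove an internal spacer from the 60S precursor, and all 3 rose by unequal amounts. PES1 (chromosome 22, 30576625 to 30607083), its BRCT-domain subunit, had 298, 301.1 and 298 CPM in MGO and 158.4, 154 and 157 CPM in Control (0.94, SE 0.06). BOP1 had 106, 138 and 141 CPM in MGO and 76.6, 73.1 and 74.5 CPM in Control (0.78, SE 0.09), with MGO replicate 1 nearest to Control. WDR12 had 79.4, 74.4 and 71.8 CPM in MGO and 66.8, 63.1 and 63.7 CPM in Control (0.22, SE 0.06, adjusted p = 0.00626), and its direction turned to −0.30 (adjusted p = 0.00201) under library size alone. PES1 counts per WDR12 count, which need no scaling, were 3.76, 4.04 and 4.14 in MGO and 2.37, 2.44 and 2.46 in Control libraries. They are not corrected for transcript length, 2295 nt for PES1 and 8100 nt for WDR12. Against the median of its decile of length, PES1 was 0.76 higher and WDR12 1.68 higher, the reverse of their order above. Over all alternative fits, the highest log2 fold change was 1.11 for PES1 and 1.71 for WDR12.

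The direction of a factor went with the size of its gene. Raised factors had a median transcript length of 2046 nt and lowered ones of 4245 nt, with ranges of 732 to 8100 nt and 1616 to 9025 nt. Across the 36 tested factors, Spearman's rho between transcript length and log2 fold change was −0.61, and it was −0.58 with the longest transcript in place of the median. Across all 21746 tested genes with a length it was −0.37, and across the 12197 coding genes with a mean of at least 1 CPM it was −0.62, so the factors were close to other coding genes in this. For the largest number of exons in a transcript it was −0.74 over the factors and −0.23 over all genes. A value over the coding genes alone was not taken for exons. Genes are not independent replicates, and these values only describe the libraries. UTP20 and HEATR1, which fell most, have up to 62 and 45 exons, while BYSL has 7, NOP16 has 6 and NHP2 has 4.

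Factors were also compared with genes of like length; the part of length in their values was not tested. Set beside the median of all tested genes in the same decile of transcript length, 30 of 36 factors were higher and 6 were lower, with a median difference of 0.81. Against coding genes with a mean of at least 1 CPM, a comparison added after the data were seen, 28 were higher and 8 lower, with a median difference of 0.71. WDR12, at 8100 nt, was 1.68 above the median of its decile, and BYSL was 2.29 above. UTP20 differed from its own by −1.58, HEATR1 by −0.95 and PPAN by −1.10. RRP8 was 2.78 above, but its length is the median of transcripts of 726 and 6560 nt and is poorly fixed. Transcripts also ran from 1035 to 9974 nt in WDR3, from 270 to 2701 nt in WDR75 and from 793 to 8447 nt in HEATR1. Comparisons by length share this limit for those genes. With the length trend removed in the fit, 30 factors rose and 5 fell, and UTP20 (−1.45) and HEATR1 (−1.14) still fell. The median of all genes was 0.12 in that fit. The median of the factors lay above it by 0.85, against 0.88 in the main fit. Shares of all genes that rose or fell with the length trend removed are not given here.

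**Figure D3:**
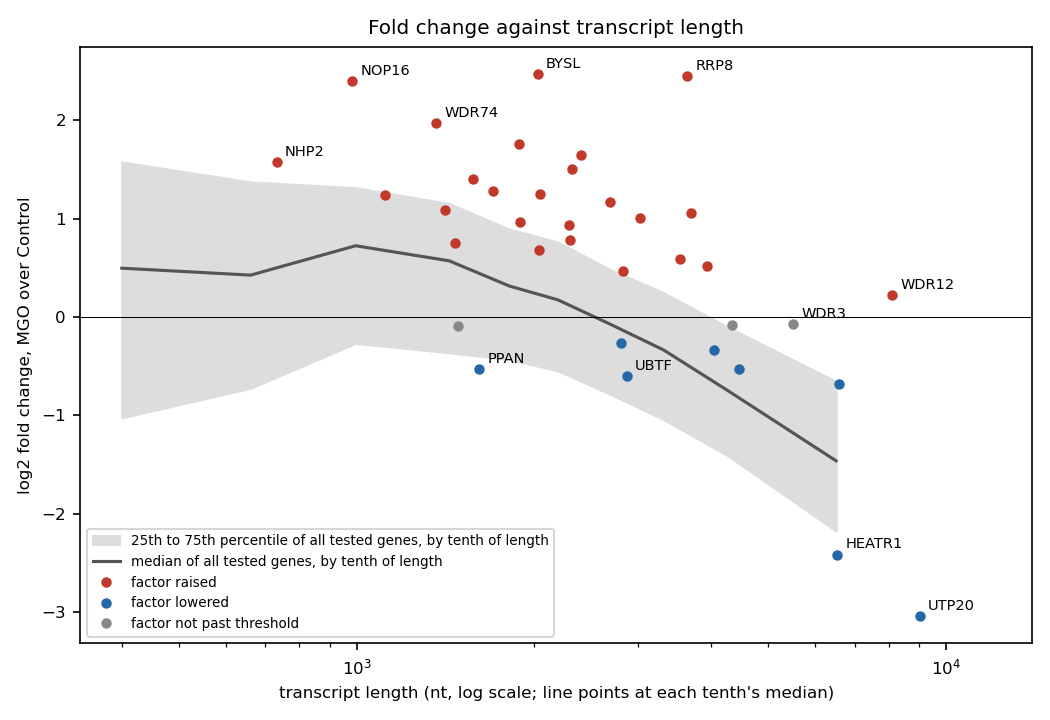
Log2 fold change of MGO over Control (y axis) against transcript length (x axis, log scale) for the 36 tested factors (points coloured by call), over the median (line) and the 25th to 75th percentile (grey band) of all tested genes in each decile of length. Most factors lie above the line, with RRP8, BYSL and WDR12 far above it and UTP20 and HEATR1 below.

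Some of the factors are themselves hosts of the RNAs they serve. In GENCODE release 29, 7 of the 38 genes hold 25 snoRNA genes within their span on the same strand, with 6 in GNL3, 5 in NOP56, 4 in NOP58, 3 each in NCL and WDR43, and 2 each in DKC1 and PPAN. Of these hosts, 5 rose and 2 (NCL and PPAN) fell, close to the split among all tested factors. Over all genes tested, 38.8% rose and 40.5% fell.

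Other genes of the same pathway, from 5 lists of 114 genes chosen for their textbook roles, are given beside the factors. Of 108 tested, 80 rose (74.1%) and 19 fell (17.6%), and the median log2 fold change was 0.76. Over all genes tested, 38.8% rose and 40.5% fell in the main fit, with a median of −0.02. Under library size alone 55 rose and 36 fell, which lowered the share of rises among the calls from 80.8% to 60.4%. With the length trend removed 99 rose and 4 fell, in a fit where the median of all genes was 0.12. The shares of all genes that rose or fell under these alternatives are not given here. Among other small subunit factors, 28 of 37 rose and 6 fell (21 and 10 under library size alone). UTP23, which helps release a snoRNA from the precursor, rose by 1.82 (SE 0.06) and NGDN by 1.79 (SE 0.07), while the GTPase gene BMS1 had −1.04 (SE 0.10) and ESF1, whose groups overlapped, −0.35 (SE 0.13). Among other large subunit factors, 29 of 41 rose and 7 fell, but the split was nearly even under library size alone, with 17 raised and 16 lowered. ZNF622, a late 60S factor, rose by 2.07 (SE 0.07), and EIF6, which keeps the subunits apart until the 60S is mature, rose from 56.5 ± 1.93 to 232 ± 14.1 CPM (SD, n = 3; log2 fold change 2.04). MDN1, the giant ATPase midasin, fell from 266 ± 40.8 to 37.3 ± 7.47 CPM (SD, n = 3; −2.83), and URB1 had −1.61 (SE 0.09). The transcripts of MDN1 and URB1 have 17906.5 and 10832 nt.

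Of 9 snoRNP assembly factors, 6 rose and 3 fell, where 38.8% of all genes rose and 40.5% fell. SNU13, the box C/D protein that binds the RNA fold first, rose by 1.80 (SE 0.07) and PIH1D1, of the R2TP chaperone complex, by 1.68 (SE 0.07), whereas its partner RPAP3 had −0.43 (SE 0.08) and the dyskerin chaperone SHQ1 −0.42 (SE 0.07). For the RNA exosome and nucleases that trim the precursor, 12 of 15 rose and 2 fell (7 and 5 under library size alone). The exosome subunits EXOSC5 and EXOSC1 rose by 1.82 (SE 0.09) and 1.55 (SE 0.07), while the helicase gene MTREX had −0.94 (SE 0.09) and the exonuclease gene XRN2 −0.25 (SE 0.07). Of 6 initiation and termination factors of RNA polymerase I, 5 rose and 1 fell (4 and 2 under library size alone). TAF1D and TAF1A, subunits of the selectivity factor SL1, rose by 1.86 (SE 0.09) and 1.57 (SE 0.09), and TAF1C, of the same factor, fell by 0.45 (SE 0.07). TBL3, NOC4L, DDX51, PAK1IP1, NOL8 and ZNHIT3 had at most 4 counts in all and were not tested, as with FBL and NOP10. Some tested genes were also low, with group means of at most 1.13 CPM. Their totals were 104 counts for WDR46, 144 for DDX24, 436 for RRN3, 462 for AATF and 748 for EXOSC4. All of these except DDX24 are among the raised genes counted above, and their values are uncertain.

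**Figure D4:**
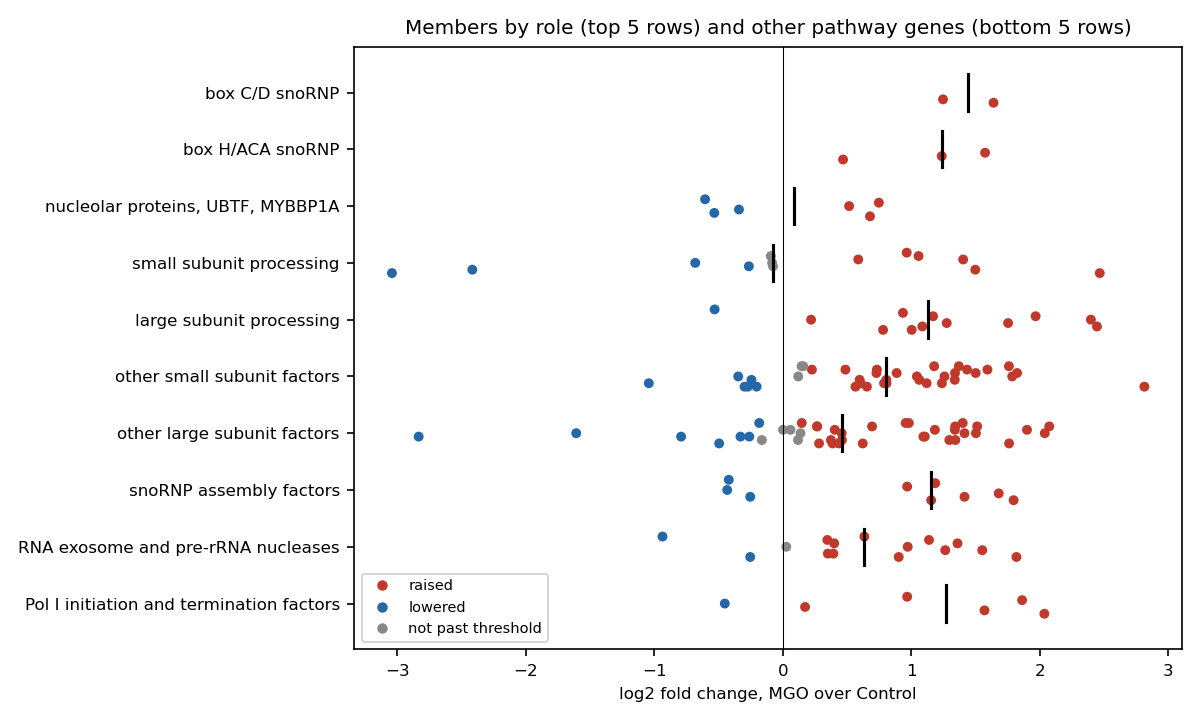
Log2 fold change of MGO over Control (x axis) for each tested gene (points, red for raised, blue for lowered, grey for not past the threshold) in the 5 role groups of the factors and the 5 lists of other pathway genes (rows), with the list's median as a black bar. Medians run from −0.08 for small subunit processing to 1.44 for box C/D snoRNPs, and MDN1 and UTP20 lie farthest to the left.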

How the data were processed

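Polyadenylated RNA was measured in 6 libraries. Per the labels' protocols, 500 ng of total RNA was made into stranded libraries with 8 PCR cycles and read as 100 bp pairs. The authors deposited a table of raw counts, 1 row per gene. The submitters' processing notes name Trim Galore 0.6.10, STAR 2.7.0a, featureCounts 2.0.6, DESeq2 1.42.0 and hg38. Annotation, strand setting and handling of multi-mapping reads: not given in the sources used here.

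edgeR 4.0.16 in R 4.3.3 tested the counts (filterByExpr, TMM scaling, quasi-likelihood test, Benjamini-Hochberg over 23109 genes, threshold 0.05). SE was taken as the size of the log2 fold change over the root of the F statistic. CPM uses TMM-scaled library sizes, and without spike-ins all changes are relative. Lengths, positions and overlaps come from GENCODE release 29 (GRCh38), where transcript length is the median over basic coding transcripts, and 56752 rows matched. On counts simulated for the 22366 genes tested in that run, 26% of genes changed 1.25-fold, 84% at 1.5-fold and 100% at 2-fold were recovered. No pair of replicates looked like 1 library deposited again (chi-square of at least 3.77 for each degree of freedom). Same-numbered libraries had deviations that correlated at 0.01 to 0.04, so the numbers were not taken as pairs.

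The factors, role groups and pathway lists were chosen with earlier results of these data known. Values per library are given for snoRNP proteins, PeBoW, factors failing the filter, and up to 3 largest rises and falls of each other role group. Other pathway lists give their 2 largest rises and falls with a mean of at least 1 CPM. Ratios of counts, WDR3, WDR75 and further factors were added after their values were seen. Alternatives were other scalings and filters, DESeq2, limma-voom 3.58.1, a replicate block, removal of a length trend (spline with 5 degrees of freedom) and leaving out each library.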

Additional observations from a re-analysis of the deposited data

How the results depend on the processing

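The count of raised factors stayed at 25 and that of lowered ones at 8 under RLE size factors, both other filters, DESeq2, limma-voom and the replicate block, and all 36 factors kept direction and call there. Across all alternatives 24 of the 36 did so. Library size alone gave 20 raised and 12 lowered factors and a median log2 fold change of 0.33, and reversed DKC1 (−0.054), NOLC1 (−0.0067) and WDR12 (−0.30). Upper quartile scaling gave 25 and 6, and a median of 1.03 where that of all genes was 0.15. Its values for WDR3, WDR75 and RRP12 were 0.10, 0.080 and 0.091. Removal of the length trend gave 30 and 5, and a median of 0.97 where that of all genes was 0.12. It reversed NCL (0.37), MYBBP1A (0.31), WDR3 (1.02), WDR36 (0.61) and RRP12 (0.72). Apart from the scaling or trend itself, the cause was not tested. Shares of all genes raised and lowered are not given here for the alternatives. Leaving out each library in turn kept 25 raised, with 8 to 10 lowered, 25 lying wholly above and 9 to 11 wholly below Control, and a median of 0.84 to 0.92. The higher counts and median came without MGO replicate 1. With the replicate block the median was 0.85. Of the role groups, small subunit factors had 7 lowered under library size alone in place of 4, and the nucleolar group had 5 raised with the length trend removed in place of 3. Overlap of groups was not recomputed for limma-voom, the block or the length trend, which do not set CPM values of their own. FBL and NOP10 had too few counts for any comparison, and NOP2 and PPAN share exonic bases with another gene on the same strand.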

Other observations

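The pseudogene row NPM1P27, the most counted of the rows named after NPM1, was highest in replicate 1 of both groups. It stood at 24.9, 12.4 and 12.3 CPM in MGO and 18.1, 7.21 and 6.90 CPM in Control replicates 1 to 3, so the MGO value was also above the Control value at each number. NPM1 itself was also highest there, but by less, with 1646 against 1592 and 1464 CPM in MGO and 987 against 894 and 919 CPM in Control libraries. Of 23109 genes tested, 71 had a CPM in replicate 1 more than 1.5 times that of both other replicates in both groups, and 6 of these had 1000 counts or more in all. The hepatocyte gene ALB had 560 counts in MGO replicate 1 and 5 to 19 in the other libraries. Another NPM1 pseudogene row, NPM1P26, stood at 2.34, 1.96 and 1.88 CPM in MGO and 0.491, 0.671 and 0.685 CPM in Control libraries. FBLL1, a gene related to FBL, had 2.41, 2.73 and 2.88 CPM in MGO and 1.82, 1.87 and 1.73 CPM in Control, against the near-zero row of FBL.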
